A study of Mus musculus with 12 samples.

Results

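The genes of mouse chromosome 16 were described here in B16F10 melanoma cells that carried wild-type IRF7 or its C435A form. The members were chosen by position and level: rows of the deposited table on chromosome 16 with a mean CPM (counts scaled to a common library total) above 1 over the 12 libraries. Several gene families and interferon-related genes were left out by name. This gave 355 members of 27503 genes in the table, from 839 rows on the chromosome, of which 380 passed the level threshold and 25 were left out by name. The chromosome was taken up with the difference between the lines already known, so the shift reported below is a description and carries no test. Just inside the threshold stood 2310043M15Rik at 1.002 CPM, Gm20695 at 1.01 and Igf2bp2 at 1.03. Just outside it stood Clcn2 at 0.988 CPM, Dnajc28 at 0.980 and Lmln at 0.965. By the same rule the other 18 autosomes held 11270 genes.

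Poly(A)-selected RNA was sequenced in 4 groups of 3 libraries: wild-type control cells, wild-type cells with IFNα stimulation, IRF7-C435A mutant control cells, and mutant cells with IFNα stimulation. All were B16F10, a mouse melanoma cell line. The labels give no dose or time of IFNα, and do not say how the mutant line was made or whether it is 1 clone. They name no separate cultures within a group, so p-values here measure the spread between these libraries, which may be technical.

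Mouse chromosome 16 carries the segment that matches the human 22q11.2 region, deleted in DiGeorge syndrome, and near its distal end a large part of the genes found on human chromosome 21. Its genes share no pathway: superoxide dismutase, chromatin assembly, tRNA methylation, mitochondrial ribosome and vesicle transport genes lie side by side. Libraries of poly(A) RNA report transcript levels only, and DNA copy number was not analysed here.

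Of the members, 4 that lie in different stretches of the chromosome, each of them higher in the mutant line under every setting tried, are shown by the 250 bases before their start, written in the direction of transcription. They are examples only, and how alike or unlike the promoters of the members are was not measured. Capitals mark GC boxes (GGGCGG, or CCGCCC on the other strand) and CCAAT boxes (CCAAT, or ATTGG on the other strand). The sequences and their coordinates are from RefSeq, build GRCm38.p6.
Carhsp1, chr16:8672154-8672403, minus strand: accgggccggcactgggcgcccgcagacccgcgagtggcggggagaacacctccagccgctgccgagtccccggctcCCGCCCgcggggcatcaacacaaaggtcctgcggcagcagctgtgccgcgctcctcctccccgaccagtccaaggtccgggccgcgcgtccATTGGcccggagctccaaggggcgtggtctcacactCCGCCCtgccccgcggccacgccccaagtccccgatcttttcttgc
Scarf2, chr16:17797032-17797281, plus strand: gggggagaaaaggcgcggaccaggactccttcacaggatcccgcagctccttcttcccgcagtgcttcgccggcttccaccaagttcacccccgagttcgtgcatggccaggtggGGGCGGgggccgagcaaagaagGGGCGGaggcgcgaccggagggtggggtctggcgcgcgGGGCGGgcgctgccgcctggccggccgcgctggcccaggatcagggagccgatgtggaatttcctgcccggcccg
Vps8, chr16:21422868-21423117, plus strand: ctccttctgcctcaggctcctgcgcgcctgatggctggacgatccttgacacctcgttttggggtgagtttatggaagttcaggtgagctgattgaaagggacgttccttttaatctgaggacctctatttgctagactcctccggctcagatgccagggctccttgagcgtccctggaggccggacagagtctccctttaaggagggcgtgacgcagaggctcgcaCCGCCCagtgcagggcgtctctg
Sod1, chr16:90220512-90220761, plus strand: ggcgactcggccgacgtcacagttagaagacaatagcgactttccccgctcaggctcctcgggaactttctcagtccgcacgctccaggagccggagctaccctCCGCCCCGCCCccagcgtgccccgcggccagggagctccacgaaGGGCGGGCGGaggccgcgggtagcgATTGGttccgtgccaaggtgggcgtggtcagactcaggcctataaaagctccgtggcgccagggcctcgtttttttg

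A GC box stood in all 4 of these windows, whereas a CCAAT box stood in those of Carhsp1 and Sod1 but not in those of Scarf2 and Vps8. Of members that rose and were read but are not shown, Gnb1l held a GC box, and Tiam1 held none in any window read. RefSeq promoters could be matched by symbol for 283 members and 43 of the 47 members that rose in the mutant line. A GC box on either strand was found in 64.0% of the matched members, 65.8% of the genes of the other autosomes chosen by the same rule, and 35.4% of all 27025 promoters in the table. The CCAAT box was found in 39.6%, 41.0% and 37.5%, and the E box CACGTG, which is its own reverse complement, in 11.0%, 10.3% and 6.86%. The pair of interferon regulatory factor half-sites (GAAANN followed at once by GAAA), on either strand, was in 7 of the 283 matched members (2.47%), in 3.12% of the genes of the other autosomes and in 3.46% of all promoters. Of the 43 matched members that rose, 28 (65.1%) held a GC box, 14 (32.6%) a CCAAT box, 3 (6.98%) an E box and 0 the pair. With the pair in only 2.47% of matched members, 43 are too few for that 0 to be read as a lack. These are counts of letters in 250 bases and say nothing of a factor that may bind elsewhere.

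Library totals ran from 60511573 to 75927461 counts, the 3 mutant control libraries (62349499 to 63898023) and the third mutant IFNα library (60511573) being lower than the other 8. All 8 melanocyte markers checked had counts in every library, and their summed level was 3415 to 4574 FPKM (a level scaled for transcript length and library size) in the wild-type line and 2949 to 3292 FPKM in the mutant line, without overlap. The part of this difference in the results below was not tested. Lung epithelium markers, which melanoma cells in culture should lack, summed to 41.6 to 65.2 CPM in 8 libraries and to at most 0.252 CPM in the other 4. The 8 were all wild-type IFNα and all mutant control libraries, the first wild-type control and the third mutant IFNα library. Leukocyte markers summed to 25.1 to 60.4 FPKM and fibroblast and endothelium markers to 3.12 to 9.11 FPKM, and erythroid markers to at most 25.1 FPKM. Erythroid markers split as the lung markers did. They summed to 5.61 to 20.6 CPM in the same 8 libraries and to at most 0.22 CPM in the other 4. Fibroblast and endothelium markers summed to 27.5 to 65.7 CPM in the 8 and 21.7 to 27.1 CPM in the 4. Leukocyte markers overlapped, at 56.7 to 98.8 CPM in the 8 and 45.8 to 61.7 CPM in the 4.

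Genes of chromosome 16 were higher in the mutant line as a body. The median log2 fold change of the 355 members, mutant against wild type and averaged over both treatments, was 0.19, and that of the genes on the other autosomes was −0.04. The difference, called the shift here, was 0.22 on the log2 scale, or 1.17-fold. It was 0.24 (1.18-fold) without IFNα and 0.20 (1.15-fold) with IFNα. Each of the other 18 autosomes, set against the rest in the same way, lay between −0.06 (chromosome 18) and 0.05 (chromosome 17). Of the members, 292 (82.2%) had a positive log2 fold change, whereas on the other autosomes 43.2% of genes did, and on chromosome 17 53.4%. These and later counts of positive members are with TMM scaling, and with library totals as scaling 65.9% of members and 29.9% of the genes on the other autosomes were positive.

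**Figure D1:**
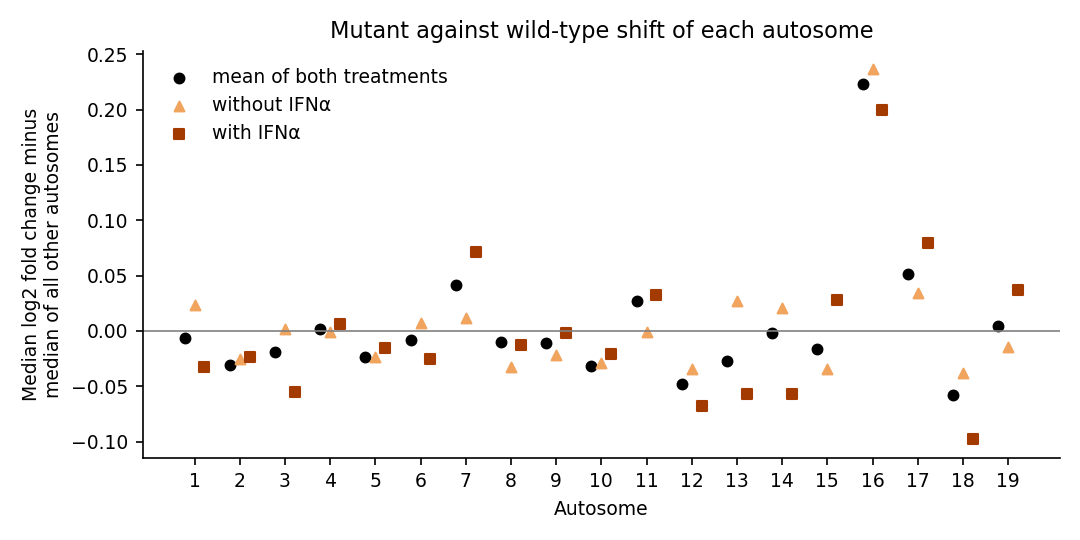
Shift of each autosome between the lines: median log2 fold change of its genes (mutant against wild type) minus the median over the genes of the other autosomes, for the mean of both treatments (circles), without IFNα (triangles) and with IFNα (squares). Chromosome 16 stands at 0.22, 0.24 and 0.20, and the circles of the other 18 autosomes between −0.06 and 0.05.

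The lines also stood apart in the values of single libraries. For every member the log2 CPM in a library was taken relative to the gene's mean over the 12 libraries, and the median over members was set against the median of the other autosomes. In the wild-type control libraries this value was −0.0979, −0.131 and −0.102, and in the wild-type IFNα libraries −0.0848, −0.103 and −0.101. In the mutant control libraries it was 0.139, 0.110 and 0.108, and in the mutant IFNα libraries 0.0915, 0.129 and 0.0937. All 6 mutant libraries thus lay above all 6 wild-type libraries, with a gap of 0.176 between the nearest, against a pooled SD within groups of 0.0169. The group means were −0.110 ± 0.0178 (SD, n = 3) and −0.0961 ± 0.00982 in the wild-type line, and 0.119 ± 0.0169 and 0.105 ± 0.0211 in the mutant line, without and with IFNα. On 16 of the other 18 autosomes the lines overlapped. On chromosomes 2 and 10 all mutant libraries lay below all wild-type libraries, by gaps of 0.0117 and 0.00969, and on none of the 18 did they all lie above.

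Depth and lung markers differed between libraries. The 4 libraries with the lowest totals were all mutant and had values of 0.0937 to 0.139, and the other 2 mutant libraries, with totals of 73549681 and 73868279 within the range of the wild-type libraries (71529862 to 75927461), had 0.0915 and 0.129. The mutant IFNα libraries without lung markers had 0.0915 and 0.129, and the one with them 0.0937. The wild-type control libraries without lung markers had −0.131 and −0.102, and the one with them −0.0979. With a term for lung markers in the fit the shift was 0.21 for the mean of both treatments, 0.21 without IFNα and 0.25 with IFNα.

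**Figure D2:**
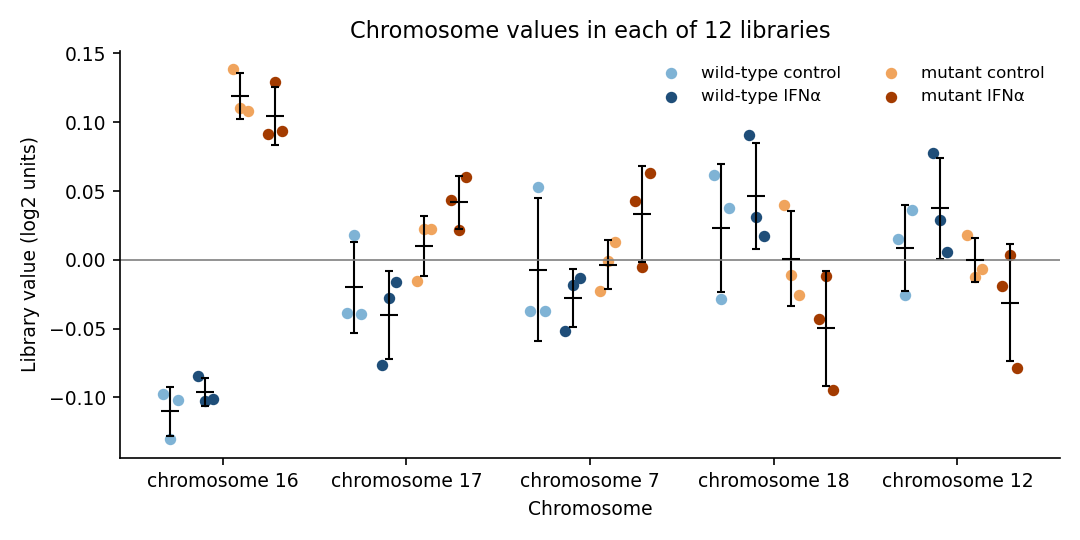
Value of each library (median over a chromosome's genes of log2 CPM relative to the gene's mean, minus the other autosomes) for chromosome 16 and for the 2 autosomes with the highest and the 2 with the lowest shift otherwise; points are libraries, bars the mean and SD of a group of 3. On chromosome 16 the mutant libraries lie at 0.0915 to 0.139 and the wild-type libraries at −0.131 to −0.0848, and on the other 4 chromosomes the lines overlap.

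The shift moved most of the distribution rather than a tail of it. The middle 50% of members lay between log2 fold changes of 0.03 and 0.32, a width of 0.30, and on the other autosomes between −0.17 and 0.12, a width of 0.29. The 10th and 90th percentiles were −0.09 and 0.45 for members and −0.28 and 0.29 elsewhere. Only 2 members exceeded a log2 fold change of 1, and none lay under −1. Both are predicted genes of low level, of which Gm36457 falls outside the rule for named genes and is named because of its value. Gm36457 was at 1.29 (SE 0.305) and 2310043M15Rik at 1.37 (SE 0.305), with library counts of 40 to 223 and 23 to 168. Leaving aside the members that passed the test below, the other 307 had a median of 0.15, and 245 of them (79.8%) were positive.

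The comparisons without and with IFNα share no library. Of the members, 221 (62.3%) were higher in the mutant line in both, 36 (10.1%) lower in both, and 98 (27.6%) went opposite ways. On the other autosomes these shares were 26.0%, 37.3% and 36.6%. In the fit without IFNα 79.4% of members were positive (43.2% elsewhere), and in the fit with IFNα 72.7% (45.5% elsewhere).

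Members began between positions 3561957 and 97802510 of the deposited coordinates, and were taken in bins of 10 Mb along the chromosome. The shift was positive in every bin from the first to the last, but single members went both ways. The first members by start, Zfp263, Zfp597 and Naa60, had log2 fold changes of 0.03, −0.63 and −0.24. The first bin (38 members) had a shift of 0.29, the second (84 members) 0.24, the third (42) 0.25, the fourth (65) 0.20, the fifth (23) 0.21 and the sixth (27) 0.17. The last bin (45 members) had 0.27. Between them, 3 bins with under 20 members each had 0.10 (11 members, from 60 Mb), 0.11 (6 members, from 70 Mb) and 0.22 (14 members, from 80 Mb). In each of the 7 bins with at least 20 members, all 6 mutant libraries lay above all 6 wild-type libraries, and in the 3 thin bins the lines overlapped. The lower values from 60 to 80 Mb rest on 17 members, and their difference from the other bins was not tested.

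The 194 bins of 10 Mb with at least 20 genes on the other autosomes ran from −0.21 to 0.21 with a median of −0.02. Of these, 2 lay above the lowest full bin of chromosome 16, on chromosome 3 from 150 Mb (0.21, 23 genes) and on chromosome 13 from 20 Mb (0.20, 44 genes). None lay above 0.24, the median of the 7 full bins of chromosome 16. Without IFNα the 7 full bins ran from 0.20 to 0.28, with 2 of the 194 bins elsewhere above the lowest, and with IFNα from 0.14 to 0.39, with 9 above the lowest. In bins of 5 Mb the 8 with at least 20 members ran from 0.17 to 0.33, and 5 of 222 such bins elsewhere lay above the lowest of them.

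**Figure D3:**
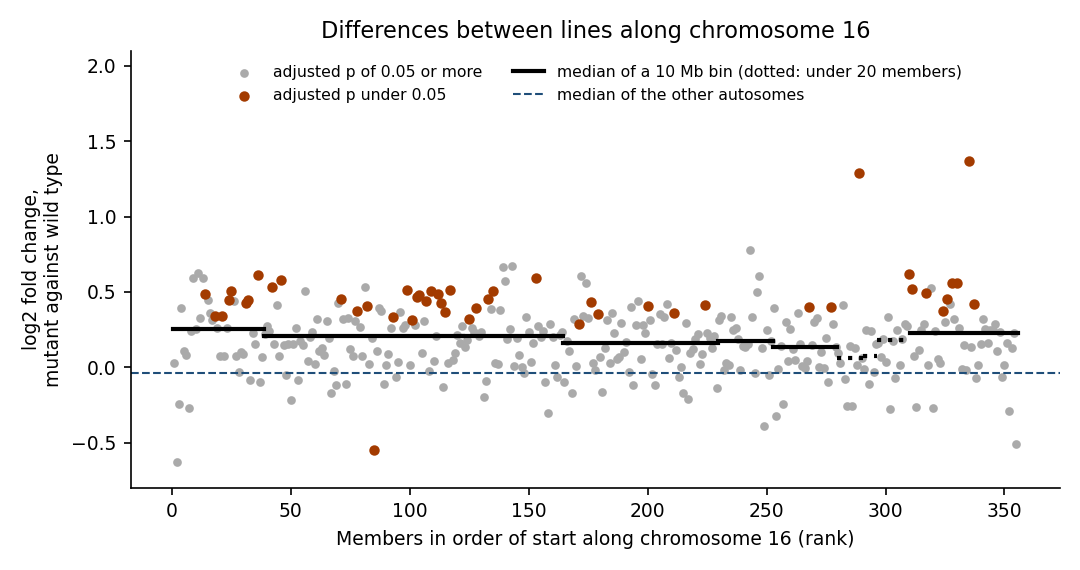
Log2 fold change, mutant against wild type (mean of both treatments), of the 355 members in their order along chromosome 16, with members past an adjusted p of 0.05 in color, medians of 10 Mb bins as black lines (dotted where a bin has under 20 members) and the median of the other autosomes dashed. Every bin median lies above the dashed line, and the members past the threshold, 47 higher and 1 lower, are spread along the order.

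The shift was positive at every length, base composition and level. Genes of members and other autosomes together were split into 5 equal groups by each property. Across the groups by GC content of the longest transcript the shift was 0.20 to 0.27, across those by length 0.19 to 0.27, and across those by mean CPM 0.15 to 0.25. GC content and length could be read for 98.6% of members, whose medians were 48.2% and 3519 bases against 49.9% and 3217 bases elsewhere. Median level was 13.3 CPM for members and 14.6 CPM elsewhere.

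Rows of chromosome 16 outside the members went the same way. Of the 459 rows under the level threshold 7 were left out by name, and 155 of the other 452 could be tested, with a median log2 fold change of 0.32 against 0.17 for 4752 such genes of the other autosomes. The 25 genes left out by name had a median of 0.26, and 23 of them were positive. On the other autosomes the median was −0.04 and 43.2% of genes were positive. Genes with such names were left out there too, so these are unlike sets, and the same families elsewhere were not compared. Of the 25, 6 rose and 0 fell in the edgeR test, where 1.89% of all genes tested rose and 0.915% fell. They are gene families and interferon-related genes picked by name, so they are no neutral sample of the chromosome.

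Single members were tested within a fit over all 17590 genes that passed the filter on low counts (edgeR's quasi-likelihood test, Benjamini-Hochberg adjusted p under 0.05). For the mean of both treatments 47 of the 355 members (13.2%) rose in the mutant line, where 1.89% of all genes tested rose. Only 1 member fell, where 0.915% of all genes tested fell. The contrast is the one for which the chromosome was taken up, so these counts are given as a description. DESeq2 gave 76 higher and 1 lower, and limma on log2(FPKM + 1) gave 23 and 1 of the 265 members it tested. The changes were small: the 47 had folds of 1.22 to 2.58 with a median of 1.36. They began at positions 4434328 to 93680789, with 8 in the first bin, 16 in the second, 5 in the third, 6 in the fourth, 0 in the fifth, 2 in the sixth and 8 in the last.

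The number of calls depended on single libraries. It was 31 and 25 without the second or the third control library of the wild type, and 23, 30 and 28 without its IFNα libraries 1, 2 and 3. It was 25, 28 and 24 without mutant control 1, 2 and 3, 30 without mutant IFNα 1, and at least 37 without any of the others. Of the 48 members called, 22 were called in all 12 fits that left out a library. Under every alternative 14 were called: Nudt16l1, Carhsp1, Scarf2, Dgcr6, Prodh, Tango2, Gnb1l, Mrpl40, Vps8, Gm45338, Umps, Sod1, Cfap298 and Mrps6. In 38 members (10.7%) all 6 mutant libraries were above all 6 wild-type libraries in TMM-scaled log2 CPM, where 1.82% of all genes tested were. The reverse order was found in 1 member, where it was found in 0.978% of all genes tested.

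With IFNα 9 members rose in the mutant line, where 0.472% of all genes tested rose, and 0 fell in edgeR, where 0.125% of all genes fell. At an unadjusted p under 0.05, 91 members (25.6%) were higher and 3 lower, where 7.56% and 6.15% of all genes tested were. DESeq2 gave 51 and 0, and limma gave 0 and 0. The count of 9 became 0 without any 1 of the 3 wild-type IFNα libraries or without mutant IFNα 1. It became 5 without wild-type control 2, 3, 4 and 3 without mutant control 1, 2 and 3, and 2 without mutant IFNα 2. With the lung marker term it was 4. Without IFNα edgeR called 0 members, where 0.165% of all genes tested passed in either direction. At an unadjusted p under 0.05, 72 members (20.3%) were higher and 2 lower, where 6.07% and 4.63% of all genes tested were. DESeq2 gave 14 and 0, limma 0 and 0, and the smallest adjusted p in edgeR was 0.0592 (Carhsp1).

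Many members overlap other rows. In the deposited coordinates 176 of the 355 members overlap another row, as do 28 of the 47 that rose, 25 of these on the other strand. The libraries were stranded per the labels, but whether strand was used in counting is not given in the sources used here, so such pairs cannot be told apart. The 179 members that overlap no row had a median log2 fold change of 0.16. Of the genes described below, Gnb1l, Cfap298, Chaf1b, Mrps6, Smim11, Timmdc1, Cdc45, Top3b, Polr2h and Runx1 overlap another row, whereas Tiam1, Vps8, Mrpl40, Scarf2, Anks3, Tango2, Thap7 and Abcf3 do not.

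Among the members that rose, Carhsp1 had the smallest adjusted p. It encodes a cold shock domain protein that binds RNA, and its identifier is ENSMUSG00000008393. Its lowest, median and highest values were 6.50, 6.99 and 8.26 FPKM in the wild-type line and 9.19, 10.3 and 10.9 FPKM in the mutant line. The lines did not overlap, and the fold was 1.53 (log2 fold change 0.61, SE 0.0790, adjusted p = 0.00113). Without IFNα its log2 fold change was 0.59 (adjusted p = 0.0592) and with IFNα 0.63 (adjusted p = 0.0219). It overlaps Pmm2.

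Sod1 (ENSMUSG00000022982), the copper and zinc superoxide dismutase of the cytosol, was the most abundant of the members whose FPKM is given here. It measured 94.5, 102 and 108 FPKM at its lowest, median and highest in the wild-type line and 125, 137 and 153 FPKM in the mutant line. Every mutant library was above every wild-type library, by a fold of 1.43 (log2 fold change 0.52, SE 0.0821, adjusted p = 0.00476). The gene overlaps Scaf4. Its rise was seen at a log2 fold change of 0.57 without IFNα and 0.47 with IFNα, neither past the threshold alone (adjusted p = 0.0873 and 0.0848).

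Smim11 and Dexi, which had among the larger folds of the members named, were less stable. Smim11, a small membrane protein gene, measured 29.2, 36.6 and 39.2 FPKM in the wild-type line and 41.5, 47.9 and 66.0 FPKM in the mutant line. Its log2 fold change was 0.56 (SE 0.127, adjusted p = 0.0340), and it passed in 4 of the 12 fits that left out a library. Dexi measured 1.98, 2.12 and 2.81 FPKM against 2.27, 2.94 and 4.25 FPKM, with overlapping lines. It overlaps Ciita on the other strand, and its log2 fold change of 0.53 (SE 0.130, adjusted p = 0.0454) passed in 1 of the 12 fits.

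Anks3, which encodes an ankyrin repeat and SAM domain protein, measured 2.81, 3.20 and 3.84 FPKM in the wild-type line and 3.34, 4.35 and 5.29 FPKM in the mutant line. The lines overlapped in FPKM, and the log2 fold change was 0.51 (SE 0.0881, adjusted p = 0.00824). Within the IFNα libraries it rose too, by 0.65 on the log2 scale (adjusted p = 0.0321).

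The member that fell was Ydjc, at 1.15, 1.22 and 1.31 FPKM in the wild-type line and 0.649, 0.767 and 0.947 FPKM in the mutant line. The lines did not overlap, and expression fell by 0.55 on the log2 scale (SE 0.135, adjusted p = 0.0454). It overlaps Ccdc116 and passed in 2 of the 12 fits that left out a library.

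**Figure D4:**
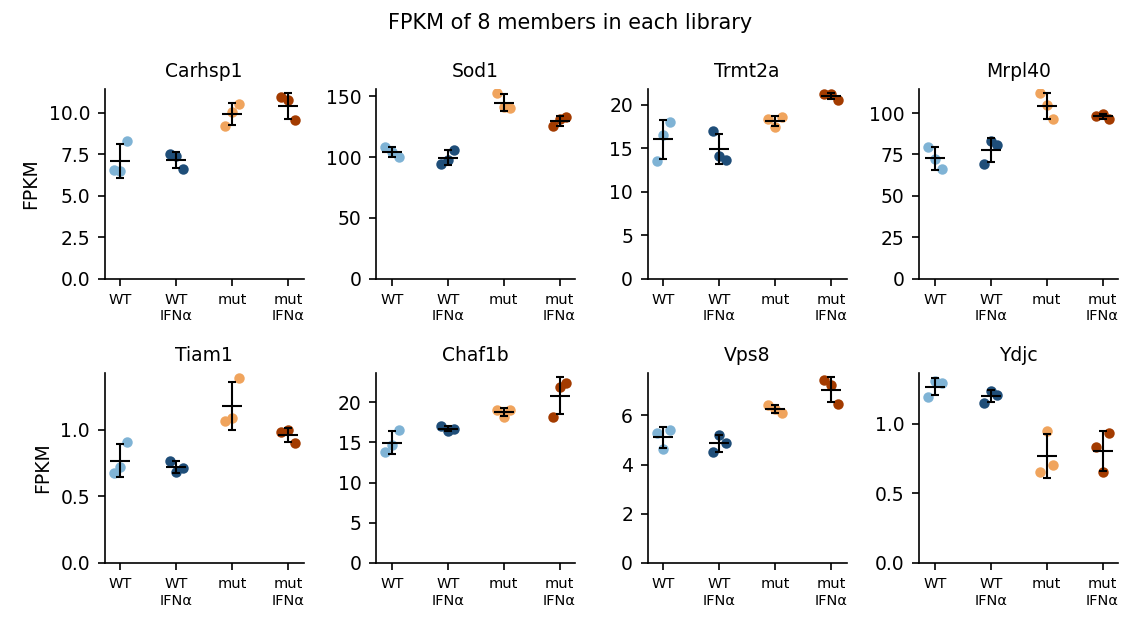
FPKM of 8 members in each library, by group (WT, wild type; mut, mutant), with the mean and SD of 3 libraries. In Carhsp1, Sod1, Mrpl40, Chaf1b and Vps8 every mutant library lies above every wild-type library, in Trmt2a and Tiam1 the lines overlap, and in Ydjc every mutant library lies below.

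The segment matching human 22q11.2 held 27 members, of which 11 rose in the mutant line and 0 fell, and 24 were positive. Their median log2 fold change was 0.28, that of all genes tested being −0.0011. Within the IFNα libraries 4 of the 27 rose, where 9 of all 355 members and 0.472% of all genes tested rose. For the mean of both treatments 13.2% of all members and 1.89% of all genes tested rose, and 0.915% of all genes tested fell. The counts of this group and of those below are to be read beside these shares. Differences between a group and the members as a body were not tested. Tango2, a gene for a protein of Golgi organization, measured 4.01, 4.49 and 4.69 FPKM in the wild-type line and 5.08, 5.83 and 6.89 FPKM in the mutant line. Its lines stood apart, with a log2 fold change of 0.50 (SE 0.0741, adjusted p = 0.00324). Trmt2a, a tRNA methyltransferase, measured 13.6, 15.3 and 18 FPKM against 17.45, 19.6 and 21.3 FPKM. Its lines overlapped in FPKM, its log2 fold change was 0.44 (SE 0.0707, adjusted p = 0.00577), and it overlaps Ranbp1 and Dgcr8.

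Gnb1l, a WD-repeat protein gene, measured 6.59, 7.38 and 8.38 FPKM in the wild-type line and 8.50, 9.39 and 10.2 FPKM in the mutant line. Its log2 fold change was 0.43 (SE 0.0696, adjusted p = 0.00583), the same without and with IFNα. Dgcr6 measured 32.5, 36.7 and 40.9 FPKM against 42.5, 47.5 and 51.4 FPKM, with a log2 fold change of 0.46 (SE 0.0786, adjusted p = 0.00707). Neither gene's lines overlapped. Prodh, the proline dehydrogenase of mitochondria, overlaps Dgcr6 on the other strand. It measured 7.63, 8.25 and 9.73 FPKM against 9.69, 10.5 and 14.1 FPKM, so that the lines overlapped slightly, with a log2 fold change of 0.48 (SE 0.0885, adjusted p = 0.0114). Its log2 fold change was 0.26 without IFNα (adjusted p = 0.479) and 0.70 with IFNα (adjusted p = 0.0232), and in the interaction no member passed.

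Scarf2, a scavenger receptor gene of the same segment, measured 24.9, 28.3 and 31.1 FPKM in the wild-type line and 29.6, 35.3 and 49.2 FPKM in the mutant line. The lines overlapped in FPKM, and the log2 fold change was 0.51 (SE 0.0918, adjusted p = 0.00930).

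Of the 54 members in the segment matching human chromosome 21, 8 rose in the mutant line, 0 fell and 44 were positive, with a median log2 fold change of 0.17. Besides Sod1 these included Tiam1, an exchange factor that activates the GTPase Rac. Leaving aside predicted genes, it had the largest log2 fold change of the members that rose, 0.62 (SE 0.102, adjusted p = 0.00643), at a low level of 0.676, 0.718 and 0.906 FPKM in the wild-type line and 0.903, 1.03 and 1.39 FPKM in the mutant line. The highest wild-type and the lowest mutant library overlapped. Cfap298, a cilia and flagella gene, measured 31.8, 37.6 and 42.8 FPKM against 46.2, 50.0 and 53.4 FPKM, without overlap, and its log2 fold change was 0.50 (SE 0.0838, adjusted p = 0.00707).

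Among 23 members for DNA replication, repair and chromatin 3 rose, 0 fell and 21 were positive, with a median of 0.15. Chaf1b, a subunit of the chromatin assembly factor that places histones on new DNA, measured 13.8, 16.5 and 16.99 FPKM in the wild-type line and 18.2, 19.04 and 22.5 FPKM in the mutant line. Its lines did not overlap (log2 fold change 0.42, SE 0.0739, adjusted p = 0.00885). Cdc45, part of the replicative helicase, measured 12.6, 15.3 and 18.8 FPKM against 15.7, 17.8 and 21.5 FPKM. Despite that overlap in FPKM its log2 fold change of 0.37 passed (SE 0.0640, adjusted p = 0.00860). Top3b, a topoisomerase, rose by 0.37 on the log2 scale (SE 0.0739, adjusted p = 0.0164) and passed in 8 of the 12 fits that left out a library. Nde1, which acts at centrosomes, stood at 0.31 and did not pass (adjusted p = 0.126).

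Of 24 transcription regulators 3 rose, 0 fell and 23 were positive, with a median of 0.27. Polr2h, a subunit shared by the RNA polymerases, measured 33.5, 42.1 and 47.1 FPKM in the wild-type line and 44.96, 54.3 and 57.6 FPKM in the mutant line. Its log2 fold change was 0.46 (SE 0.111, adjusted p = 0.0443), and it passed in 2 of the 12 fits. Thap7, a zinc finger repressor, had 0.33 (SE 0.0715, adjusted p = 0.0266) and passed in 5 of 12. Runx1, a factor of blood development, was low at 0.271, 0.352 and 0.411 FPKM against 0.361, 0.497 and 0.557 FPKM. Its log2 fold change of 0.56 (SE 0.139, adjusted p = 0.0476) passed in 1 of 12. Paxbp1 had 0.53 and did not pass (adjusted p = 0.110).

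RNA and translation genes numbered 25 members, of which 6 rose, 0 fell and 21 were positive, with a median of 0.16. Mrpl40, of the large subunit of the mitochondrial ribosome, measured 66.0, 76.0 and 83.3 FPKM in the wild-type line and 96.3, 98.9 and 112 FPKM in the mutant line. Mrps6, of the small subunit, measured 83.2, 92.6 and 100.3 FPKM against 107, 119 and 124 FPKM. Both stood apart between the lines, with log2 fold changes of 0.52 (SE 0.0966, adjusted p = 0.0123) and 0.46 (SE 0.0868, adjusted p = 0.0133). Abcf3, an ATP-binding cassette protein without a membrane part, measured 24.8, 29.2 and 30.4 FPKM against 30.9, 35.1 and 37.3 FPKM, with a log2 fold change of 0.40 (SE 0.0754, adjusted p = 0.0133).

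Of 28 members for membrane traffic and transport 2 rose, 0 fell and 21 were positive, with a median of 0.15. Vps8, part of a complex that tethers endosomes, measured 4.52, 5.04 and 5.39 FPKM in the wild-type line and 6.08, 6.44 and 7.45 FPKM in the mutant line. No library crossed between the lines (log2 fold change 0.51, SE 0.0820, adjusted p = 0.00581), and within the IFNα libraries it was 0.62 (adjusted p = 0.0291). Timmdc1, an assembly factor of respiratory complex I, measured 32.5, 35.0 and 37.2 FPKM against 37.8, 43.8 and 49.9 FPKM and had 0.41 (SE 0.0793, adjusted p = 0.0143). Ap2m1, of the clathrin adaptor AP2, and Slc25a1, the mitochondrial citrate carrier, had log2 fold changes of 0.23 and 0.28 and did not pass (adjusted p = 0.0826 and 0.0956).

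Signaling genes held 20 members, of which 1, Tiam1, rose, 0 fell and 14 were positive, with a median of 0.11. Over both treatments the log2 fold change of Rcan1, an inhibitor of calcineurin, was 0.32 (adjusted p = 0.0571). It rose within the IFNα libraries (0.57, adjusted p = 0.0473). Lztr1 and Klhl22, both adaptors of ubiquitin ligases, had 0.26 and 0.28 (adjusted p = 0.0639 and 0.0709).

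In the group of adhesion, surface and matrix genes 0 of 17 members passed in edgeR, 11 were positive and the median was 0.19. Itgb5, an integrin chain, and Alcam, an adhesion molecule, had log2 fold changes of 0.23 and 0.30 (adjusted p = 0.155 and 0.252). Adamts1, a secreted protease, and Nectin3, another adhesion molecule, had −0.28 and −0.39 (adjusted p = 0.200 and 0.236). These counts cover 170 members in at least 1 list. Among the 185 in none, 21 rose and 1 fell, 154 were positive, and the median was 0.17. As given above, 13.2% of all members and 1.89% of all genes tested rose.

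**Figure D5:**
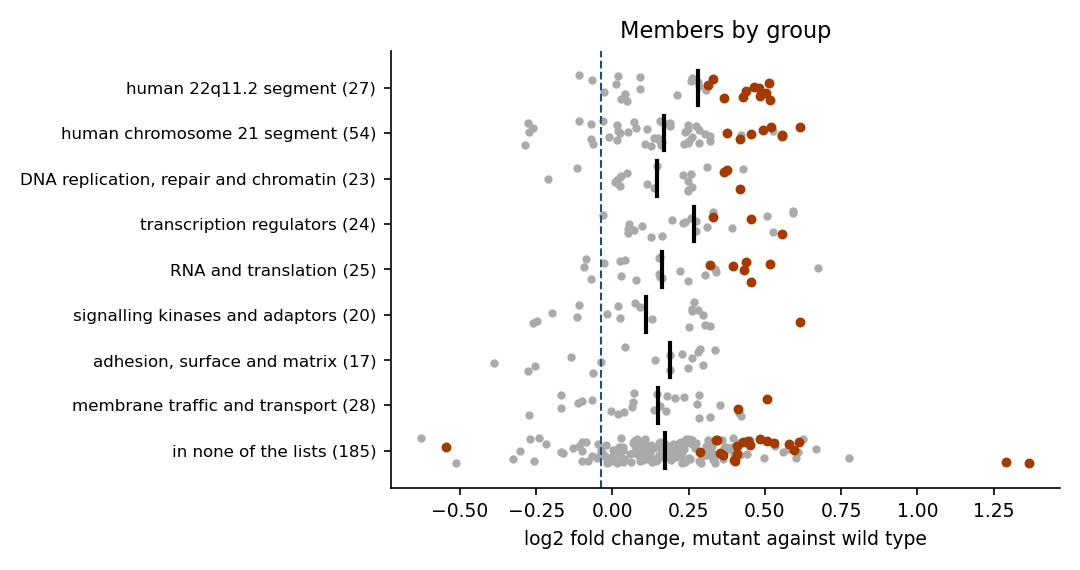
Log2 fold change, mutant against wild type (mean of both treatments), of the members of each group, with the number of members in parentheses; colored points passed an adjusted p of 0.05, black bars are medians and the dashed line is the median of the other autosomes. All 9 medians, from 0.11 to 0.28, lie to the right of the dashed line at −0.04.

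Neighboring genes were also compared as pairs. Of the members, 34 pairs start within 1000 bases of each other on opposite strands, facing away. In 29 pairs both log2 fold changes were positive (17 with library totals as scaling), in 12 pairs 1 gene rose, and in 0 pairs did both pass in edgeR. Counted as single genes, 292 of all 355 members were positive and 13.2% rose, where 1.89% of all genes tested rose. Such shares are not shares of pairs and cannot be set directly against the pair counts. The pair counts were not tested against these shares, and at 13.2% pairs with both genes called would be rare in any case. Some pairs overlap, among them Trmt2a with Ranbp1 and Cdc45 with Ufd1. Mrpl40 and Hira, a histone chaperone, had 0.52 and 0.05, Tango2 and Arvcf, a catenin, had 0.50 and 0.04, and Cdc45 and Ufd1, a cofactor in protein degradation, had 0.37 and 0.03. Trmt2a and Ranbp1, a regulator of the GTPase Ran, had 0.44 and 0.31. The small values of Hira, Arvcf and Ufd1 turned negative with library totals as scaling (−0.05, −0.05 and −0.06), so their direction is not settled. The difference within a pair was not tested.

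For IFNα against control no member passed in edgeR in either line. The shift of the members against the other autosomes was 0.02 in the wild type, −0.02 in the mutant and −0.02 in the interaction. In the wild type edgeR called 0 of 355 members, where 0.0227% of all genes tested passed, and DESeq2 called 1. At an unadjusted p under 0.05, 14 (3.94%) were higher and 5 (1.41%) lower, against 2.68% and 2.76% of all genes tested. In the mutant edgeR called 0, where 0.00569% of all genes passed, and DESeq2 called 5 higher and 1 lower. Unadjusted, 29 (8.17%) were higher and 13 (3.66%) lower, against 5.70% and 4.62% of all genes tested. In the interaction edgeR and DESeq2 each called 0, where 0% of all genes passed in edgeR. Unadjusted, 15 (4.23%) were higher and 4 (1.13%) lower, against 2.75% and 2.42% of all genes tested. Limma called 0 in all 3. Interferon-stimulated genes of the chromosome such as Mx1 and Parp9 had been left out by name.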

How the data were processed

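RNA of B16F10 cells was measured in 12 libraries, 3 in each of 4 groups taken from the labels. The authors deposited 1 table with a count and an FPKM per gene and library, per the file headers. Per the submitters' processing notes, HISAT2 2.0.4 and StringTie 1.3.4d were used on build GRCm38, with cutadapt 1.9 and UMI-tools, and edgeR and DESeq2 are named as well, all without their roles. Whether identifiers or strand were used in counting is not given in the sources used here. Of 350 members found in a GRCm38 annotation, 0 had an equal start, so positions are given as deposited, and only promoters and gene properties are from GRCm38.

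The counts were tested with edgeR 4.0.16 (R 4.3.3; TMM, default filter, quasi-likelihood test, 17590 genes, 4 group means, common biological coefficient of variation 28.9%), two-sided, with Benjamini-Hochberg adjustment over all genes tested and a threshold of 0.05. The code was tested on simulated data. The members and gene lists were chosen with earlier results of these data known. Named genes were the 10 largest changes in each direction past the threshold with a mean of at least 1 FPKM in the higher line, up to 3 per direction in other comparisons, 4 of each list by unadjusted p, and those beside the level threshold. Predicted genes were left out of the first 2 parts of this rule. Alternatives were DESeq2 1.42.0, other scalings, no filter, limma 3.58.1 on log2(FPKM + 1) or log2(FPKM + 0.1) over 10094 genes, a term for lung markers, a replicate block, other level thresholds, the mean in place of the median, 5 Mb bins, and leaving out each library. Removing a trend with GC content or length was chosen after seeing the data.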

Additional observations from a re-analysis of the deposited data

How the results depend on the processing

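The shift of chromosome 16 between the lines stayed positive under every alternative run. For the mean of both treatments (0.22) it was 0.159 and 0.197 with limma at pseudocounts of 1 and 0.1, 0.198 as a mean in place of a median, 0.256 over genes above 20 CPM, and 0.198 to 0.234 leaving out each library. Without IFNα (0.24) it was 0.175 with limma at a pseudocount of 1, 0.215 with a lung marker term, 0.205 as a mean, 0.259 above 20 CPM, and 0.214 to 0.246 leaving out each library. With IFNα (0.20) it was 0.155 and 0.183 with limma, 0.252 with the lung marker term, 0.225 above 20 CPM, 0.243 with the GC trend removed (chosen after seeing the data), and 0.184 to 0.225 leaving out each library.

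Counts of members called moved more. The 48 calls for the mean of both treatments became 77 with DESeq2, 20 with library totals as scaling, 30 without a filter, 24 and 23 with limma at pseudocounts of 1 and 0.1, and 23 to 46 leaving out each library. The 9 with IFNα became 51 with DESeq2, 0 with library totals, 5 without a filter, 0 and 1 with limma, 4 with the lung marker term, and 0 to 10 leaving out each library. The 0 without IFNα became 14 with DESeq2, and 1 and 2 without wild-type control 1 and mutant IFNα 3. DESeq2 gave 1 and 6 for IFNα against control, in wild-type and mutant cells. The causes were not tested. Leaving aside the genes beside the level threshold, not all of which were followed here, no gene named by the rule for single genes changed direction for the mean of both treatments. Hira, Arvcf and Ufd1, named as neighbors, turned negative with library totals as scaling (−0.0497, −0.0457 and −0.0601), with limma at a pseudocount of 1 (−0.0345, −0.0342 and −0.0652) and at 0.1 (−0.0393, −0.0573 and −0.0746). Leaving out each library, Hira ran from −0.00971 to 0.127, Arvcf from −0.00923 to 0.0991 and Ufd1 from −0.0303 to 0.0822.

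Replicate numbers are shared between groups, but 2 of 18 same-numbered pairs of libraries correlated above 0.1 (range −0.278 to 0.172), so the numbers were not taken to pair the samples, and 4 of 12 libraries correlated best with their own number. With a replicate block the calls were 31 for the mean of both treatments, 2 with IFNα and 0 without. The smallest fold called among members was 1.22.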
